A study of Rattus norvegicus and Mus musculus with 61 samples.

Results

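The 7 genes followed here after traumatic brain injury are those through which astrocytes handle the brain's water, ions, glutamate and energy supply: Aqp4, Gja1, Slc1a2, Slc1a3, Glul, S100b and Aldoc. The members were every probe set on the arrays whose annotation gives 1 of these 7 symbols and no other. That made 27 of the 21287 probe sets in the series, 9 of 12488 on the mouse array and 18 of 8799 on the rat array. The mouse annotation named no probe set for Slc1a3, so the mouse arrays cover 6 of the genes. The mice were C57BL/6 males of 20 to 25 g. Under isoflurane a pneumatic piston struck the cortex at 6 m/s to a depth of 1.5 mm (controlled cortical impact, of moderate severity per the labels). Sham animals were anesthetised in the same way for sham surgery, and the labels name no anesthetic or surgery for naive animals. A mouse sample pooled disks of 4 mm from 3 animals, and there were 3 injured and 2 sham samples at each of 4, 8, 24 and 72 h, with 2 naive ones. The rats were Sprague-Dawley males of 400 ± 25 g under pentobarbital, struck by a fluid pulse of 2.5 atm (fluid percussion). A rat sample was a 7 mm disk of 1 animal. The injured and sham rats numbered 5 and 4 at 30 min, 3 and 4 at 4 h, and 3 and 2 at each of 8, 24 and 72 h and 21 d, beside 3 naive rats. Every disk was parieto-occipital cortex, and in injured animals it was centred on the impact and held the contusion, so each array read a mixture of cell types rather than astrocytes.

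Astrocytes wrap synapses and blood vessels. Aquaporin 4 (Aqp4) is the water channel of their endfeet on vessels, and connexin 43 (Gja1) builds the gap junctions that join them into a network. The transporters GLT-1 (Slc1a2) and GLAST (Slc1a3) clear glutamate from the synaptic space, and glutamine synthetase (Glul) turns it into glutamine that neurons take back. S100b is a calcium-binding protein long used as a marker of astrocyte damage in blood, and aldolase C (Aldoc) is the brain form of a glycolytic enzyme. After injury astrocytes become reactive, a state known for more of the filament protein Gfap.

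Each value is the deposited intensity of 1 probe set on 1 array, on a linear scale whose 2% trimmed mean lay between 792.7 and 799.1 on every array. Levels of different probe sets cannot be set against each other. Differences are injury minus time-matched sham on the log2 scale, ± the standard error of 1 limma fit per species, and a probe set counts as called where its p, adjusted by Benjamini and Hochberg's method over all probe sets tested, is below 0.05. All 9 mouse members and 17 of the 18 rat members passed the filter on low signal. The exception, Slc1a2 rc_AI044517_at in rat, exceeded the filter intensity of 203 on 2 of 39 arrays (range 8.02 to 622) and was not tested.

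Markers of the cell types of cortex were read in the tissue, though not every marker on every array. In mouse, the astrocyte marker Gfap (94144_g_at, 1174 to 13752), the neuronal marker Snap25 (11273 to 26822) and the oligodendrocyte marker Mag (102405_at, 666 to 3220) exceeded the filter intensity on all 22 arrays, and no marker was at 0. In rat, Snap25 (AB003991_at, 2083 to 16827) and Mag (M22357_g_at, 2045 to 4325) did so on all 39 arrays. Other markers were lower. In mouse the oligodendrocyte marker Cnp exceeded the filter intensity on 0 of 22 arrays and the neuronal marker Camk2a on 7 and 6 by probe set. In rat the astrocyte marker Aldh1l1 exceeded it on 31 of 39 arrays and Camk2a on 23 and 19. Both mouse sham samples at 4 h also held pituitary hormone transcripts, with Prl at 8270 to 8861 against 55.7 to 459 in all other groups. In rat, 4 arrays stood apart, namely replicates 3 and 4 of sham 4 h (median correlation with the other rat arrays 0.633 and 0.498), replicate 3 of sham 30 min (0.780) and replicate 5 of injury 30 min (0.729), against 0.810 to 0.925 for the other 35. The 4 h differences of the rat genes named below are given with and without them. The choroid plexus transcript Ttr also varied widely among the rat samples of 1 group, with rc_AA945169_at at 843 to 28369 in injury 8 h, 4040 to 24718 in sham 72 h and 2673 to 27723 in naive rats. The pituitary transcript Cga (AF016702mRNA_at) reached 5588 in sham 4 h, 3847 in injury 30 min and 1562 in sham 30 min. These groups hold the arrays that stood apart, and in every other rat group it read at most 184. Cga D00575_at reached 1987 in sham 4 h but 654 in injury 30 min, and Prl read at most 354 on any rat array. The part of such tissue in the rat differences was not tested.

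Promoter sequence was searched for 6 of the genes in rat, in 10 windows from 250 bases before to 50 bases after a RefSeq transcript start (GRCr8). Member windows on 1 chromosome were left out of this search, and no Aqp4 window was searched. The shares over all windows given below were not limited in that way. The 3 printed below belong to the gene whose mouse call held under every alternative run on 1 of its probe sets (Gja1) and to the pair of genes of which 1 probe set each had the most alike levels in rat (Aldoc and S100b). Capitals mark matches on either strand to 3 motifs: AP-1 (TGANTCA), the GC box (GGGCGG) and the core of the hypoxia response element (ACGTG).

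Gja1, chr20:36302314-36302613, plus strand: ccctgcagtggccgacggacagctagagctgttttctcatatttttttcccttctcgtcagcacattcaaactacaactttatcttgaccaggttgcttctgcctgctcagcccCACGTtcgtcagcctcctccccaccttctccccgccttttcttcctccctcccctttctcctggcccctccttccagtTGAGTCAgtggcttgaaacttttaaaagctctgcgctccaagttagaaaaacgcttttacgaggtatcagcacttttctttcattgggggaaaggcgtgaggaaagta

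Aldoc, chr10:63715294-63715593, plus strand: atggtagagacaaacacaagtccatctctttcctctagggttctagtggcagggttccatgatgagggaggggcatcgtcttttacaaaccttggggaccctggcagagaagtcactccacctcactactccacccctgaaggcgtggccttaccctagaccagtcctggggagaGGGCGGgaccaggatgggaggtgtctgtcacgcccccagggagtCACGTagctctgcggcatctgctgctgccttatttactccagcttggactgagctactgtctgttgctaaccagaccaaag

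S100b, chr20:12381032-12381331, minus strand: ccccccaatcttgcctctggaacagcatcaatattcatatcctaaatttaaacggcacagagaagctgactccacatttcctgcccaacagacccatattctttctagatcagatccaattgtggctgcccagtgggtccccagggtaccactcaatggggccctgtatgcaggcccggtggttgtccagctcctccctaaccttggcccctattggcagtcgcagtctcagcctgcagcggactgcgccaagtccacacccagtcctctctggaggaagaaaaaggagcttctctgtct

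The AP-1 letters occurred once in the Gja1 window, beginning 58 bases before the start, and in no window of the other 5 genes. Of all 33469 promoter windows in the table, 7.33% held them. The hypoxia core was in windows of 4 of the 6 genes (Gja1, Slc1a2, Slc1a3 and Aldoc) and in 19.3% of all windows, and the GC box was in 3 (Slc1a2, Glul and Aldoc) and in 33.1%. A gene counted if any of its windows matched, and some genes had several. The percentages are per single window, so the gene counts cannot be set directly against them. The S100b window held none of the 3. A cAMP response element (TGACGTCA) and the STAT-type GAS element (TTCNNNGAA) were also searched. Neither was in any of the 10 windows, against 1.83% and 8.87% of all windows. A match describes letters, and no binding was measured in these samples.

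In mouse, Aqp4 went through the widest swing of the 6 genes: low at 8 h, near sham at 24 h and high at 72 h. Probe set 102704_at read 394, 192 and 922 in the 3 injured samples at 8 h (503 ± 377, SD, n = 3) against 2113 and 1431 in sham (1772 ± 482, SD, n = 2). At 72 h it read 5250, 3435 and 3894 in injury (4193 ± 944, SD, n = 3) against 1984 and 585 in sham. Every injured sample lay below both shams at 8 h and above both at 72 h, while at 4 h (1985, 1567 and 1195 against 1443 and 1533) and at 24 h (3191, 1475 and 2580 against 1798 and 1632) the groups overlapped. Aqp4 fell at 8 h by 2.08 ± 0.55 (adjusted p = 0.0264, limma) and rose at 72 h by 1.94 ± 0.55 (adjusted p = 0.025), a 3.83-fold difference. In disks of mixed tissue, fewer cells of a type and less RNA per cell cannot be told apart.

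The other Aqp4 probe set, 102703_s_at, followed the same course without passing the test at either time. It read 144, 17.0 and 311 at 8 h against 537 and 527 in sham (−2.37 ± 0.73, adjusted p = 0.0529), and 1776, 1258 and 1131 at 72 h against 663 and 172 (2.01 ± 0.73, adjusted p = 0.0747). Across the 22 arrays the 2 probe sets had r = 0.952 (Spearman 0.905). The difference between the 72 h and the 8 h effect, a comparison added after the values were seen, was 4.01 ± 0.78 for 102704_at (adjusted p = 0.0108) and 4.38 ± 1.03 for 102703_s_at (adjusted p = 0.0334), where 2.09% of all probe sets were called. These calls held in 5 of 8 and 3 of 7 alternative settings, and were lost on both probe sets with the title letter as a block (adjusted p = 0.0641 and 0.164), with array weights (0.0649 and 0.153) and with shams averaged (0.121 and 0.262). Ordered by mean log2 level, the 9 mouse groups ran from injury 72 h at the top, the only group on either probe set whose range was clear of its neighbour, down to injury 8 h. The 7 groups between overlapped their neighbours on both probe sets.

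The size of the Aqp4 changes rested on few controls. Sham 72 h replicate 1d (585) and 1 naive sample (696) lay below the other 8 uninjured arrays, which read 1431 to 2113. Without sham 1d the 72 h difference was 1.06 (adjusted p = 0.397), and without sham 1c it was 2.82 (adjusted p = 0.00378). Without injury 72 h replicate 1 or 3 it was 1.76 (adjusted p = 0.0842) or 1.98 (adjusted p = 0.058). The difference between the 72 h and 8 h effects moved with the same sham: without sham 72 h replicate 1d it was 3.13 (adjusted p = 0.0675) on 102704_at, and without sham 8 h replicate 1b 3.73 (adjusted p = 0.0701). Of 10 fits that each left out 1 sample, the call held in 8 on 102704_at and in 5 on 102703_s_at, where it was 3.41 (adjusted p = 0.17) without sham 72 h replicate 1d. The 8 h call was lost without sham 1b (−1.80, adjusted p = 0.254), sham 1c (−2.36, adjusted p = 0.0631), injury 1 (−2.05, adjusted p = 0.063) or injury 2 (−1.53, adjusted p = 0.122), and with the replicate number as a block (−1.72, adjusted p = 0.055). With all 10 uninjured arrays as 1 control group, Aqp4 102704_at was called at both times, at −1.78 (adjusted p = 0.00325) and 1.54 (adjusted p = 0.00504). So was 102703_s_at, at −2.15 (adjusted p = 0.00498) and 1.58 (adjusted p = 0.0226).

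**Figure D1:**
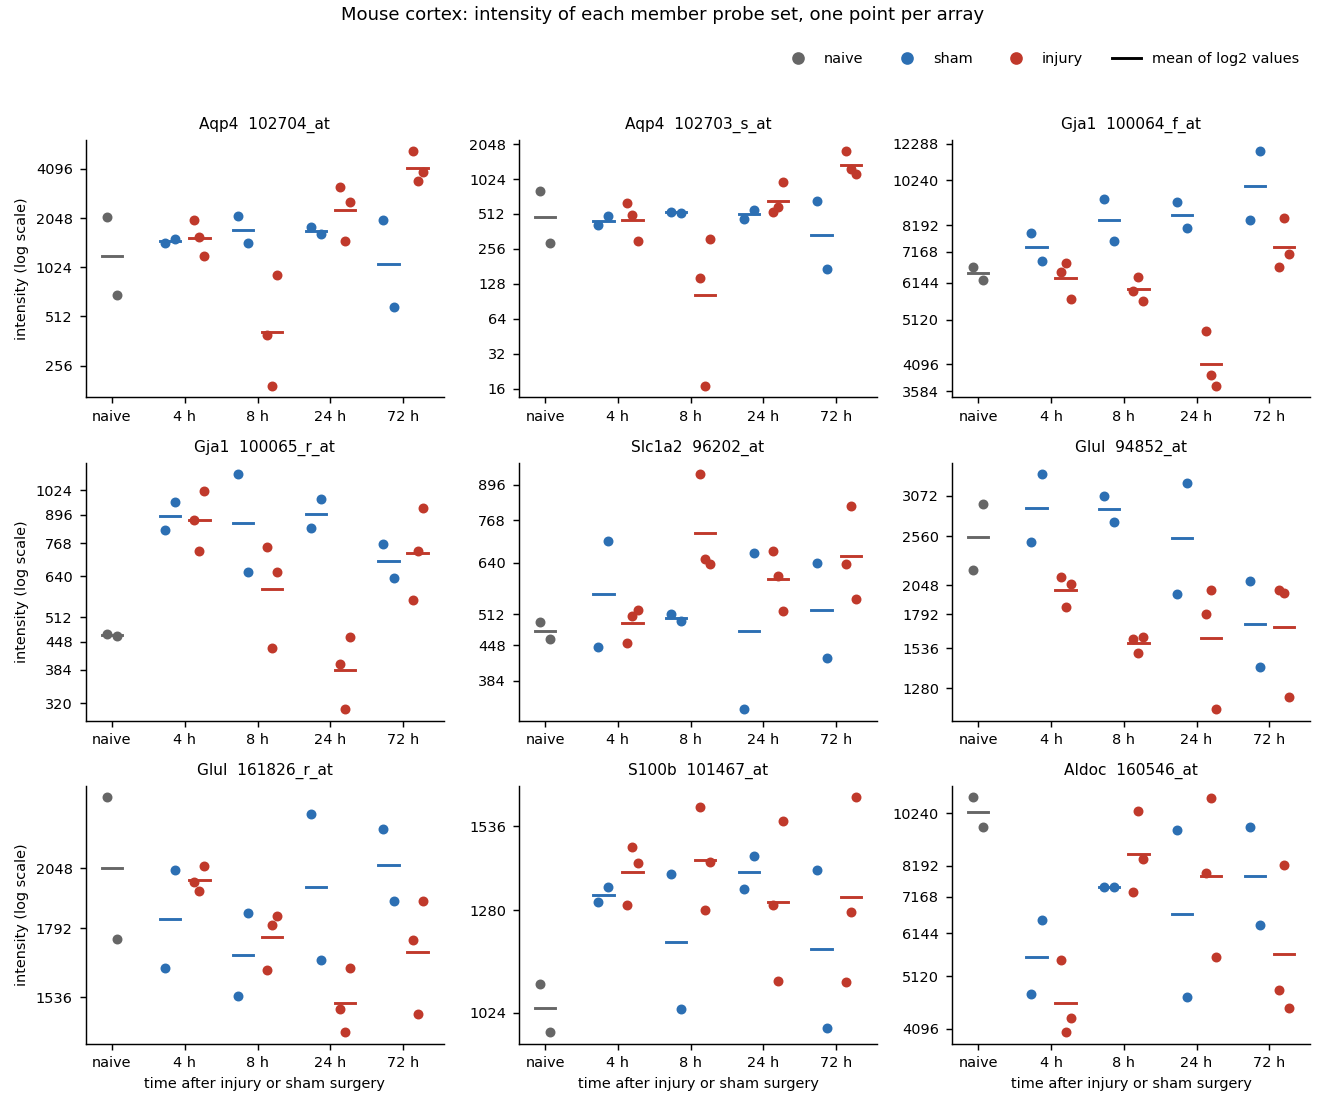
Intensity of each of the 9 mouse member probe sets (vertical axes, log scale) in naive, sham and injured cortex by time after surgery (horizontal axes). Points are arrays and short lines the group means of the log2 values. Injured samples lie below both shams for Aqp4 102704_at at 8 h and for both Gja1 probe sets at 24 h, and above both shams for Aqp4 at 72 h.

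Gja1 was low at 24 h on both of its mouse probe sets. Probe set 100064_f_at read 4840, 3890 and 3683 in injury against 9196 and 8087 in sham, and 100065_r_at read 397, 310 and 459 against 832 and 976. On 100064_f_at these 3 samples held the lowest values of all 22 arrays, and the highest of them, 4840, lay below the lowest of any other group, 5621 at 8 h after injury. The connexin fell by 1.07 ± 0.17 on 100064_f_at (adjusted p = 0.000323) and by 1.23 ± 0.27 on 100065_r_at (adjusted p = 0.00525). At 8 h 100064_f_at read 5914, 6336 and 5621 against 9307 and 7565 (−0.50 ± 0.17, adjusted p = 0.0776). At 72 h it read 6646, 8476 and 7085 against 8388 and 11827 (−0.44 ± 0.17, adjusted p = 0.0911), and 100065_r_at read 563, 734 and 929 against 765 and 635 (0.06 ± 0.27, adjusted p = 0.916). Without sham 72 h replicate 1c, 100064_f_at was called lower at that time too (−0.68, adjusted p = 0.0145). The effects at 72 h and 24 h differed by 0.63 ± 0.23 (adjusted p = 0.36) and 1.29 ± 0.38 (adjusted p = 0.196), neither of which passed, where 0.224% of all probe sets did.

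The Gja1 call on 100064_f_at at 24 h held under each of the 10 alternative settings (adjusted p from 4.39e-05 to 0.0203) and with each of the 5 samples left out (adjusted p from 0.000298 to 0.0113). That on 100065_r_at was lost without sham 24 h replicate 1d (−1.12, adjusted p = 0.0902) and with the sham samples of a time averaged (adjusted p = 0.051). Naive samples read 6658 and 6232 on 100064_f_at and 466 and 463 on 100065_r_at, below every sham sample on both. Sham minus naive was 0.41 ± 0.14 (adjusted p = 0.322) and 0.84 ± 0.23 (adjusted p = 0.194). All 3 injured values at 24 h on 100065_r_at were below both naive ones, and so were those on 100064_f_at. On these arrays the suffix _f marks a probe set that can read several members of a gene family, and _r one made under relaxed rules. At 24 h the summed neuronal markers were 63550 to 68685 in injury against 70854 to 78209 in sham, and the microglia and macrophage markers 21263 to 25132 against 11960 to 12122. Their part in the Gja1 result was not tested.

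Glul split by probe set. 94852_at read 1601, 1501 and 1617 in injury at 8 h against 3073 and 2725 in sham, and glutamine synthetase fell there by 0.88 ± 0.26 (adjusted p = 0.0451). All 3 injured samples were below both shams at 4 h too, at 2124, 1851 and 2056 against 2488 and 3391, with −0.53 ± 0.26 (adjusted p = 0.579). At 24 h (−0.65 ± 0.26, adjusted p = 0.14) and 72 h (−0.02 ± 0.26, adjusted p = 0.977) groups overlapped. The 8 h call was lost with any of the 5 samples left out (−0.97 to −0.79, adjusted p from 0.0806 to 0.3) and with the replicate block (−0.80, adjusted p = 0.0984). The other probe set, 161826_r_at, read 1632, 1805 and 1841 at 8 h against 1539 and 1854 (0.06 ± 0.17, adjusted p = 0.91) and was not called at any time. It was lowest at 24 h after injury, at 1496, 1422 and 1641 against 2315 and 1671 (−0.37 ± 0.17, adjusted p = 0.202). Across the 22 arrays the 2 Glul probe sets had r = 0.0157 (Spearman 0.0954).

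Slc1a2, S100b and Aldoc were not called at any time in mouse. GLT-1 (96202_at) read 340 to 937 over all arrays, with its highest value at 8 h after injury: 937, 649 and 636 against 513 and 497 in sham (0.53 ± 0.27, adjusted p = 0.283). Its 4 differences ran from −0.18 to 0.53, with 95% intervals reaching from −0.76 to 1.11. S100b (101467_at) was the flattest member, at 983 to 1636 on all arrays, with differences from −0.09 to 0.26 and intervals reaching from −0.50 to 0.66. Aldoc (160546_at) read 5488, 4042 and 4291 at 4 h against 4739 and 6491, and 4832, 8211 and 4469 at 72 h against 9665 and 6373 (−0.48 ± 0.31, adjusted p = 0.363). Both naive samples, 10946 and 9654, were above 7 of the 8 shams, and sham minus naive was −0.59 ± 0.27 (adjusted p = 0.478). Over the 4 times Aldoc intervals reached from −1.14 to 0.89 and each contained 0, so at each time a change inside its interval remains possible.

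Counted over time, 0 of 9 mouse members were called at 4 h, 2 at 8 h (both lower), 2 at 24 h (both lower) and 1 at 72 h (higher). The shares called among all 8471 tested probe sets were 0.767%, 7.74%, 9.11% and 13.9%. The members' median difference was −0.04, −0.50, −0.09 and 0.06, against −0.00, −0.03, −0.04 and −0.01 for all probe sets. Groups did not overlap for 2, 5, 3 and 3 of the 9, and no share over all probe sets was computed to set beside these counts. An unadjusted limma p below 0.05 was reached by 0, 4, 4 and 3 members, against 755, 1787, 1874 and 2206 of all 8471 probe sets. Sham against naive called no member, and 0.0472% of all probe sets. The effects at 72 h and 4 h differed for no member either, where 4.29% of all probe sets were called.

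**Figure D2:**
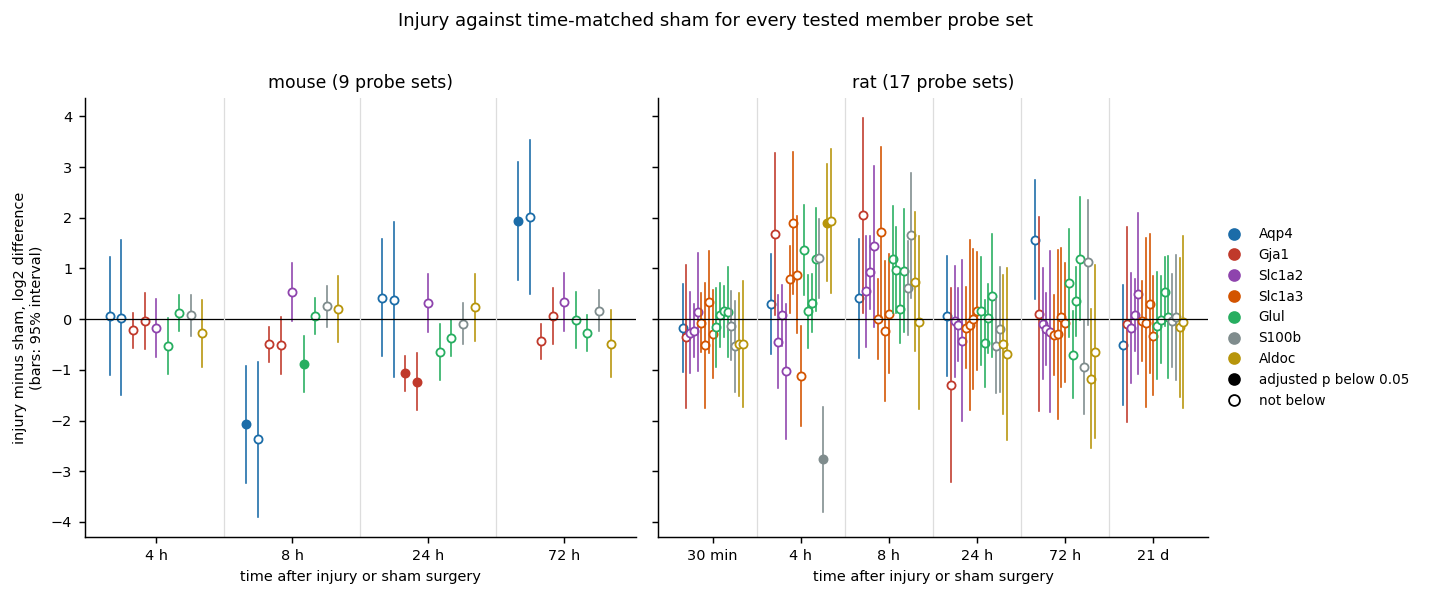
Injury minus sham log2 difference (vertical axis) with its 95% interval for every tested member probe set by time (horizontal axis), in mouse (left) and rat (right). Filled points have an adjusted p below 0.05: in mouse Aqp4 and Glul at 8 h, both Gja1 probe sets at 24 h and Aqp4 at 72 h, and in rat 1 S100b and 1 Aldoc probe set at 4 h.

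Other astrocyte genes gave the surroundings of these changes. A list of reactive astrocyte genes, chosen with earlier results of these data known, had 3, 11, 13 and 13 of its 16 mouse probe sets called higher at 4, 8, 24 and 72 h and none lower, with median differences of 0.60, 1.57, 2.38 and 2.16. At 24 h nestin (Nes), an intermediate filament, rose by 2.34 ± 0.17 (adjusted p = 9.37e-08), and at 72 h Gfap (94143_at) by 2.89 ± 0.23 (adjusted p = 7.78e-08). A list of other astrocyte genes went the other way at 24 h, with 9 of 29 probe sets lower, none higher and a median of −0.54. The fall in Id4, an inhibitor of differentiation factors, was 1.32 ± 0.17 (adjusted p = 4.93e-05) at that time, and that in Ndrg2, an astrocyte protein, 0.86 ± 0.16 (adjusted p = 0.00198). Fabp7, a fatty acid binding protein of glial progenitors, was low at 8 h (−1.52 ± 0.24, adjusted p = 0.000578) and 24 h (−0.99 ± 0.24, adjusted p = 0.0141) and high at 72 h (1.84 ± 0.24, adjusted p = 4.09e-05).

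Among the other connexins and aquaporins, 1 of 9 probe sets was called at each of 8, 24 and 72 h. Connexin 26 (Gjb2) rose by 0.90 ± 0.26 at 8 h (adjusted p = 0.0418), connexin 30 (Gjb6, 94391_at), the other astrocyte connexin and on both of these lists, fell by 0.98 ± 0.26 at 24 h (adjusted p = 0.0225), and connexin 32 (Gjb1), an oligodendrocyte connexin, rose by 1.17 ± 0.34 at 72 h (adjusted p = 0.0288). Of 11 other probe sets of the glutamate cycle, the neuronal transporter Slc1a6 alone was called, lower by 1.83 ± 0.40 at 24 h (−1.83, adjusted p = 0.006). Of 14 probe sets for proteins that anchor endfeet, the laminin chain Lamc1 was called higher at 8 h (0.93 ± 0.24, adjusted p = 0.0233) and the basement membrane protein Agrn lower at 24 h (−0.61 ± 0.15, adjusted p = 0.0146). Of 16 glycolysis probe sets, 0, 1, 2 and 1 were called higher at 4, 8, 24 and 72 h and 1 lower, at 72 h. Hexokinase 2 (Hk2) was higher at 8, 24 and 72 h, with 2.25 ± 0.41 at 24 h (adjusted p = 0.00138), and lactate dehydrogenase A (Ldha) was higher at 24 h (0.51 ± 0.14, adjusted p = 0.0225). Lactate dehydrogenase B (Ldhb) was lower at 72 h (−0.70 ± 0.22, adjusted p = 0.041).

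Markers of other cells moved at the same times. Microglia and macrophage markers had 0, 5, 8 and 12 of 15 probe sets higher at 4, 8, 24 and 72 h. Their summed intensity at 72 h was 47575 to 61375 in injury against 12082 to 12133 in sham. Neuronal markers had 0, 2, 2 and 1 of 14 lower, and at 72 h their sums overlapped, at 65736 to 74751 against 60119 to 80446. Oligodendrocyte markers had 0, 2, 3 and 6 of 15 higher, and 1 lower at 24 h, the myelin protein Mbp on 96310_at (−0.88 ± 0.17, adjusted p = 0.00269). Endothelial markers had 0, 2, 2 and 4 of 11 higher. The vessel lining genes Vwf (2.02 ± 0.32, adjusted p = 0.000207) and Cdh5 (1.66 ± 0.28, adjusted p = 0.000407) were among those higher at 72 h, and the summed endothelial intensity there was 7730 to 8980 in injury against 4134 to 5040 in sham. The part of these shifts in the Aqp4, Gja1 and Glul results was not tested.

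**Figure D3:**
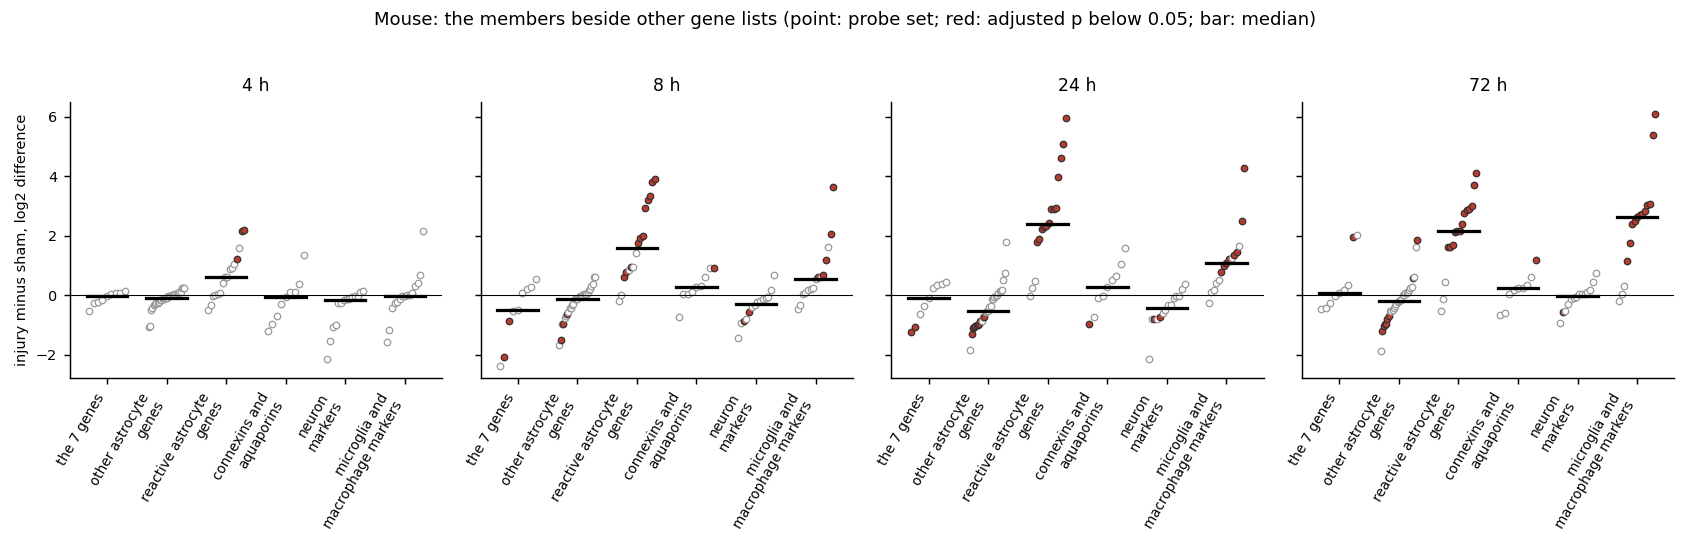
Injury minus sham log2 difference (vertical axis) of each mouse probe set in 6 gene lists (horizontal axis) at 4, 8, 24 and 72 h. Red points have an adjusted p below 0.05 and bars are list medians. Reactive astrocyte genes sit high from 8 h on, while the members stay spread about 0 with medians from −0.50 to 0.06.

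In rat, the arrays that stood apart shaped the 4 h comparison, where 2 of 17 members were called against 5.29% of all 7158 tested probe sets. All injured samples at 4 h carry the title letter b and all shams the letter a. Letter and injury cannot be told apart at that time. Aldoc M63656_s_at read 16990, 19504 and 14408 in injury against 21447, 7101, 4015 and 671 in sham. The other Aldoc probe set, X06984cds_s_at, read 10107, 13662 and 8007 against 16429, 10450, 546 and 565. The lowest 2 sham values on each were the arrays that stood apart, and injured samples lay within the span of the shams on both. Aldolase C was called higher on M63656_s_at (1.90 ± 0.56, adjusted p = 0.0463) and not on X06984cds_s_at (1.94 ± 0.70, adjusted p = 0.076). Without the 4 arrays the first was 0.45 (adjusted p = 0.765) and the second −0.34 (adjusted p = 0.623). The call on M63656_s_at was also lost without sham 4 h replicate 3 (1.85, adjusted p = 0.119) or replicate 4 (0.99, adjusted p = 0.251), without any 1 injured sample (adjusted p from 0.0924 to 0.157) and with the replicate block (1.64, adjusted p = 0.0615). The count of members called at 4 h was 9 without sham replicate 1 and 10 without sham replicate 2. Either fit leaves the arrays that stood apart as 2 of 3 shams. The count was 1 without sham replicate 3 or 4. Of all 7158 probe sets, 1972 and 2048 were called in the first 2 of these fits, and 70 and 71 in the last 2. Summed neuronal markers at 4 h were 22778 to 55173 in sham against 45223 to 60054 in injury, and their part was not tested.

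S100b pointed both ways. Its probe set rc_AI146214_at read 122, 78.1 and 91.3 at 4 h in injury against 851, 856, 671 and 367 in sham, with no overlap, and fell by 2.77 ± 0.51 (adjusted p = 0.00244). S53527mRNA_s_at read 15252, 18683 and 13345 against 19466, 8390, 4611 and 2858 (1.20 ± 0.38, adjusted p = 0.0542). Without the 4 arrays the first was −3.16 (adjusted p = 0.00312) and the second 0.29 (adjusted p = 0.842). The first was called with each of the 7 samples left out, and the second without sham replicate 1 (1.70, adjusted p = 0.00123) or 2 (1.30, adjusted p = 0.0212). The first was not called against all uninjured arrays (−1.40, adjusted p = 0.495) or with the compared groups alone in the fit (adjusted p = 0.266). Its sham values themselves varied by time: 182 and 107 at 8 h, 691 and 570 at 24 h, 84.0 and 56.3 at 72 h, 124 and 113 at 21 d, and naive read 122, 123 and 206. It exceeded the filter intensity on 20 of 39 arrays, and its correlation with the other S100b probe set was −0.33 over 39 arrays (Spearman −0.34).

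Between 4 h and 72 h the injury effect differed for 3 of 17 members, where 4.75% of all probe sets were called. The differences of the effects were −3.08 ± 0.88 for Aldoc M63656_s_at (adjusted p = 0.0401), −2.14 ± 0.59 for S100b S53527mRNA_s_at (adjusted p = 0.0355) and 3.89 ± 0.79 for S100b rc_AI146214_at (adjusted p = 0.00661). Without the 4 arrays they were −1.62 (adjusted p = 0.0864), −1.23 (adjusted p = 0.122) and 4.28 (adjusted p = 0.00553), with the replicate block the first 2 were −2.62 (adjusted p = 0.062) and −1.90 (adjusted p = 0.0529). Of the 12 fits that each left out 1 sample, the third kept its call in 12, the first in 4 and the second in 3.

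**Figure D4:**
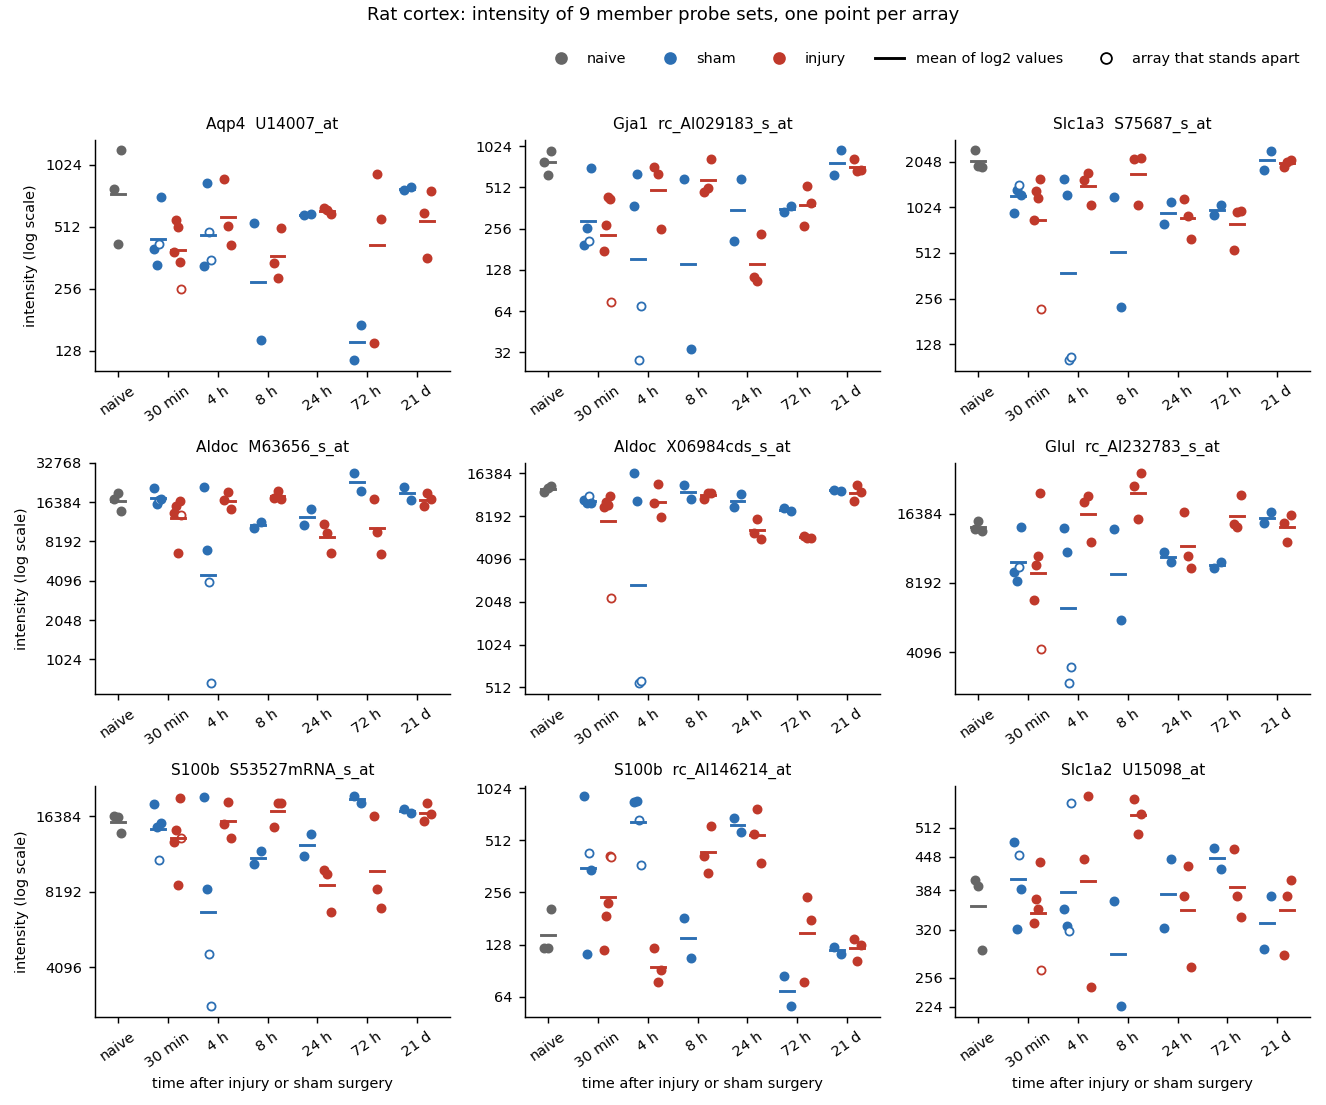
Intensity of 9 rat member probe sets (vertical axes, log scale) in naive, sham and injured cortex by time after surgery (horizontal axes). Points are arrays, open points the 4 arrays that stand apart, and short lines the group means of the log2 values. At 4 h the open sham points lie lowest for Gja1, Slc1a3, Aldoc, Glul and S100b S53527mRNA_s_at.

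No rat member was called at 72 h, where 2.19% of all probe sets were. Aldoc X06984cds_s_at read 5889, 5782 and 5765 in injury against 9265 and 8891 in sham (−0.64 ± 0.84, adjusted p = 0.805), and M63656_s_at read 17393, 9730 and 6585 against 27355 and 19973 (−1.17 ± 0.67, adjusted p = 0.443). S100b S53527mRNA_s_at read 16465, 8413 and 7079 against 19684 and 18513 (−0.94 ± 0.45, adjusted p = 0.323). All injured samples were below both shams on these 3. The groups also did not overlap for the 4 Glul probe sets, of which 3 were above sham and M91652complete_seq_g_at below it, so 7 of 17 members were apart. No share over all probe sets was computed to set beside that count. Without the 4 arrays, Aldoc M63656_s_at (adjusted p = 0.047) and X06984cds_s_at (adjusted p = 0.0467) were called lower and Glul rc_AA852004_s_at (1.20, adjusted p = 0.0267) higher, with the same differences, since none of the 4 arrays is from 72 h. In that fit 680 of all 7158 probe sets were called at 72 h. At this time the summed neuronal markers were 18576 to 38668 in injury against 61637 to 61777 in sham, and the microglia and macrophage markers 30687 to 47538 against 11921 to 13004. Their part in these differences was not tested.

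Rat Aqp4 (U14007_at) at 72 h read 140, 924 and 559 in injury against 115 and 172 in sham, overlapping, with a difference of 1.57 ± 0.58 (adjusted p = 0.157). The 2 shams at 72 h and the 144 of sham 8 h were the lowest uninjured values. Without injury 72 h replicate 1, the sample at 140, Aqp4 was called higher (2.36, adjusted p = 0.00667). At 8 h, where mouse Aqp4 fell, the rat read 341, 289 and 504.2 against 532 and 144 (0.41 ± 0.58, adjusted p = 0.953). At 21 d it read 601, 360 and 764 against 772 and 799, all below sham (−0.52 ± 0.58, adjusted p = 1). Mouse and rat differ in injury model, array and sham number, and the species were not compared by a test.

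Gja1 in rat (rc_AI029183_s_at) varied widely among shams and was not called at any time. Sham 8 h read 588 and 33.8, sham 4 h 374, 643, 28.0 and 70.3, and sham 24 h 208 and 589. At 4 h the injured samples read 716, 637 and 255, within the span of the shams, and the difference was 1.68 ± 0.79 (adjusted p = 0.149). It was −0.01 (adjusted p = 1) without the 4 arrays, and was called without sham 4 h replicate 2 (2.37, adjusted p = 0.0251). The difference was 2.04 ± 0.94 at 8 h (adjusted p = 0.556) and 0.11 ± 0.94 at 72 h (adjusted p = 0.977). Its 24 h values after injury, 114, 107 and 235, gave −1.30 ± 0.94 (adjusted p = 1). The 24 h interval reached from −3.22 to 0.61, which contains the mouse differences at that time.

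The glutamate genes of rat were not called at any time. GLAST (Slc1a3) had 4 probe sets, of which S75687_s_at read 1559, 1724 and 1055 at 4 h against 1574, 1243, 100 and 105 in sham (1.90 ± 0.69, adjusted p = 0.0763). S59158_at read 7754, 9043 and 4550 there against 7039, 5042, 4689 and 1473 (0.79 ± 0.33, adjusted p = 0.109). X63744_g_at (0.87 ± 0.57, adjusted p = 0.289) and X63744_at (−1.12 ± 0.48, adjusted p = 0.122) had opposite signs. With the 4 arrays left out, S75687_s_at was 0.02 (adjusted p = 0.997), S59158_at 0.20 (adjusted p = 0.892), X63744_g_at −0.28 (adjusted p = 0.92) and X63744_at −0.78 (adjusted p = 0.715), so the X63744 pair then shared a sign. At 8 h S75687_s_at read 2141, 1068 and 2180 against 1195 and 227 (1.71 ± 0.82, adjusted p = 0.59), which was called without the 4 arrays (adjusted p = 0.0315). GLT-1 (Slc1a2) U15098_at read 586, 499 and 547 at 8 h against 365 and 224 (0.92 ± 0.35, adjusted p = 0.393), with no overlap, and rc_AI638980_at 480, 422 and 358 against 386 and 211 (0.55 ± 0.54, adjusted p = 0.887).

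At 8 h all injured rats read above both shams on 3 of the 4 glutamine synthetase probe sets, none of which passed the test. rc_AI232783_s_at read 21596, 15592 and 24625 against 14068 and 5650 (1.18 ± 0.52, adjusted p = 0.529), and M91652complete_seq_g_at read 15765, 15955 and 14820 against 7417 and 8465 (0.97 ± 0.42, adjusted p = 0.515). The third, rc_AA852004_s_at, read 5839, 5454 and 7211 against 4598 and 2168 (0.96 ± 0.59, adjusted p = 0.78). M91652complete_seq_at overlapped, at 7867, 9135 and 8442 against 6022 and 8976. At 4 h rc_AI232783_s_at read 18358, 19526 and 12310 against 14159, 11201, 2989 and 3522 (1.36 ± 0.43, adjusted p = 0.0552), and without the 4 arrays the difference was 0.38 (adjusted p = 0.798).

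Over the rat series, 0 of 17 members were called at 30 min, 2 at 4 h and 0 at 8, 24 and 72 h and 21 d. The shares called among all probe sets were 0.014% at 30 min, 0.461% at 8 h, 0.335% at 24 h and 0% at 21 d. In the limma fit an unadjusted p below 0.05 was reached by 0 members at 30 min, 10 at 4 h, 6 at 8 h, 0 at 24 h, 2 at 72 h and 0 at 21 d. Of all 7158 probe sets it was reached by 226, 2142, 580, 327, 1078 and 95 in order of time. The members' median difference was −0.18, 0.79, 0.74, −0.11, −0.09 and −0.03 in order of time. Sham against naive called no member, and 0.0279% of all probe sets, and the effects at 21 d and 72 h differed for none, where 0.14% did. Differences ran from −0.54 to 0.34 at 30 min and from −0.52 to 0.54 at 21 d. Groups did not overlap for 7 of 17 members at 8 h, all of them higher after injury: the 3 Glul probe sets above, GLT-1 U15098_at, both S100b probe sets and Aldoc M63656_s_at (17678, 19908 and 17233 against 10339 and 11517). At 30 min, 4, 24 and 72 h and 21 d the groups were apart for 0, 1, 4, 7 and 4 of the 17. The share of all probe sets without overlap was not computed, so these counts have no background to be read against. At 24 h, Aldoc X06984cds_s_at read 6263, 7802 and 5671 against 9417 and 11644, below both shams without passing the test (−0.68 ± 0.84, adjusted p = 1).

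Reactive astrocyte genes did move in rat. Of 18 probe sets on that list, 0, 6, 6, 6, 9 and 0 were called higher at 30 min, 4, 8, 24 and 72 h and 21 d, and none lower. The counts at 4, 8, 24 and 72 h were 2, 8, 9 and 11 without the 4 arrays. Timp1, an inhibitor of matrix metalloproteinases, rose by 4.40 ± 0.66 at 4 h (rc_AI169327_g_at, adjusted p = 0.000573; 3.93, adjusted p = 0.00518 without the 4 arrays), and vimentin (Vim), an intermediate filament, by 2.83 ± 0.45 at 72 h (adjusted p = 0.000258). Of 37 probe sets of other astrocyte genes, 3 were called over the 6 times, all higher: clusterin (Clu, 1.55 ± 0.42, adjusted p = 0.0374) and cystatin C (Cst3, 1.98 ± 0.55, adjusted p = 0.0385) at 4 h, and the matrix proteoglycan neurocan (Ncan, 3.28 ± 0.88, adjusted p = 0.041) at 72 h. Without the 4 arrays Clu was 0.50 (adjusted p = 0.675) and Cst3 0.34 (adjusted p = 0.739), neither called, and Ncan was called still (adjusted p = 0.0211). In that fit 1 probe set of this list was called lower at 24 h, and 2 were called higher and 2 lower at 72 h. Among those at 72 h were Fabp7, higher (2.09, adjusted p = 0.000411), and Acsl3, lower (−0.94, adjusted p = 0.0121). Neuronal markers had 3 of 17 probe sets lower at 72 h (Map2, Nefm and Snap25), and microglia and macrophage markers 4 of 12 higher. These counts were 10 and 7 without the 4 arrays.

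Probe sets of 1 gene often disagreed in rat. Among the 4 Glul probe sets the 6 correlations over 39 arrays ran from −0.27 to 0.78, and among the 4 Slc1a3 probe sets from −0.33 to 0.65. The 2 Aldoc probe sets had r = 0.784, and r = 0.531 over the 35 arrays left without those that stood apart. Across genes, S100b S53527mRNA_s_at and Aldoc M63656_s_at had r = 0.947 (Spearman 0.922) over 39 arrays and 0.963 over 35. The other S100b probe set, rc_AI146214_at, had r = −0.29 with Aldoc M63656_s_at over 39 arrays. In mouse S100b and Aldoc had r = −0.40 over 22 arrays. The arrays share depth of signal, tissue and processing, and genes read on them are not independent, so these are descriptions. By the likeness of their 13 group means, the probe sets closest to Aldoc M63656_s_at were those of the G protein subunit Gnas (r = 0.983), the chaperone clusterin (Clu, r = 0.980) and S100b (r = 0.973). Closest to Gja1 was Slc1a3 S75687_s_at (r = 0.899). In mouse, over 9 group means, the closest to Aqp4 102704_at were Galnt4 (r = 0.915), Dlat (r = 0.901) and Preb (r = 0.890), and to Gja1 100064_f_at Sgpp1 (r = 0.930), H2az2 (r = 0.929) and Pdgfra (r = 0.928).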

How the data were processed

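RNA of 61 cortex samples was hybridised to Affymetrix arrays, 22 mouse and 39 rat. The authors deposited 1 linear intensity per probe set and array. The software behind it is not given in the sources used here. Gene symbols came from the platform annotation.

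Intensities were raised to a floor (24.1 mouse, 32.3 rat, the 10th percentile) and taken to log2. Probe sets above the 40th percentile (194 mouse, 203 rat) on at least 3 arrays were tested: 8471 of 12488 and 7158 of 8799, without control probe sets (66 and 59). Each species had 1 limma fit (version 3.58.1, R 4.3.3) with a mean per group, variance moderated with a trend, and Benjamini-Hochberg adjustment over all probe sets tested. The scripts were tested on simulated data. The labels do not say whether mouse shams sharing the number 1 are 1 pool, so p-values measure the spread between arrays, which may be technical. The number of arrays limits precision.

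Named genes were all members, at most the 3 called probe sets of smallest adjusted p per list and comparison, markers needed to describe a group, and for each member gene the 3 probe sets of most like group means (Pearson correlation). The members and lists were chosen with earlier results of these data known, and the comparisons of 72 h with 8 h and 24 h in mouse after the values were seen. The alternatives tried were 1 probe set per gene, quantile normalization, the 25th percentile as floor, no filter, the replicate number or title letter as a block, array quality weights, the compared groups alone, all uninjured samples as control, shams of a time averaged, the 4 rat arrays that stood apart left out, and each replicate left out.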

Additional observations from a re-analysis of the deposited data

Results flagged for a closer look

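In 3 of 51 combinations of a rat probe set (17) and a group of 4 or 5 samples (injury 30 min, sham 30 min and sham 4 h), or 5.88%, 1 sample lay far from the others. Chance gives about 1 in 20, and the 17 probe sets were read on the same arrays and are not independent. Slc1a2 U15098_at read 575 in sham 4 h replicate 4, above the 318 to 351 of the other 3. Aldoc M63656_s_at read 6722 in injury 30 min replicate 3, below the 12988 to 16718 of the other 4. Aldoc X06984cds_s_at read 2193 in injury 30 min replicate 5, below the 9479 to 11364 of the other 4. Sham 4 h replicate 4 and injury 30 min replicate 5 are among the 4 arrays that stood apart, and injury 30 min replicate 3 is not.

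The injury effect differed between times for 5 probe sets by a test of the difference itself (limma). In mouse, the 72 h effect on Aqp4 exceeded the 8 h effect by 4.01 on 102704_at (adjusted p = 0.0108) and by 4.38 on 102703_s_at (adjusted p = 0.0334), calls that held in 5 of 8 and 3 of 7 alternative settings. In rat, the 72 h effect minus the 4 h effect was −2.14 on S100b S53527mRNA_s_at (adjusted p = 0.0355), 3.89 on S100b rc_AI146214_at (adjusted p = 0.00661) and −3.08 on Aldoc M63656_s_at (adjusted p = 0.0401). The 2 S100b values have opposite signs.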

How the results depend on the processing

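Counts over all probe sets moved with the settings. In the mouse fits named below, shams averaged aside, they ran from 352 to 587 at 8 h and from 478 to 1817 at 72 h. At 24 h the fit with 1 probe set per gene called 679. With the settings used throughout they were 656, 772 and 1176 at 8, 24 and 72 h. Tested were 8471, but 12422 without a filter and 6352 with 1 probe set per gene. Counts of members called moved as follows. In mouse at 8 h, 2 became 0 without a filter, with the replicate block or with shams averaged, and 1 with the title letter as a block or the compared groups alone. At 24 h, 2 became 1 with 1 probe set per gene or shams averaged. At 72 h, 1 became 2 with the 25th percentile floor, the replicate block or all uninjured samples as control, and 0 without a filter, with the title letter, array weights, the compared groups alone or shams averaged. In rat at 4 h, 2 became 1 with quantile normalization, no filter, 1 probe set per gene, the replicate block, array weights or without the 4 arrays that stood apart, and 0 with the compared groups alone or all uninjured samples. Calls over all probe sets, 379 with the settings used throughout, ran from 73 to 361 in the former fits. They were 0 and 92 in the latter. At 8 h, 0 became 1 with the compared groups alone or without the 4 arrays, and at 72 h, 0 became 4 with array weights and 3 without the 4 arrays. Of all 7158 probe sets, 58 and 125 were called in these fits at 8 h. At 72 h 1368 were called with array weights and 680 without the 4 arrays. Leaving out each replicate gave 0 to 2 at 8 h, 1 to 2 at 24 h and 0 to 3 at 72 h in mouse, 1 to 10 at 4 h and 0 to 1 at 72 h in rat, and 0 at mouse 4 h and rat 30 min, 8 h, 24 h and 21 d. Of 3631 values of single members under the alternatives, none reversed a called direction, 79 lost a call and 45 gained one. Another 267 changed sign without a call before or after. Only values called with the settings used throughout could lose a call, so the 79 are not a share of the 3631. In rat, same-numbered samples' deviations correlated from −0.41 to 0.36 (15 pairs), and at 30 min a differently numbered pair reached 0.62. Where a time has 2 shams they deviate in mirror image, so these correlations do not settle whether the replicate numbers pair the rats. In mouse the deviations of same-numbered samples correlated from −0.07 to 0.07 (8 pairs), but the 2 shams of a time share a number and deviate in mirror image, so this does not test the pairing. The title letter could not be fitted as a block for mouse 4 h, for sham against naive or for 72 h against 4 h. In rat it was not used as a block. There it separates all injured from all sham samples at 4 h, which also enters the comparison of 72 h with 4 h. Aqp4 102703_s_at in mouse fell below the filter intensity on 3 of 22 arrays and rat S100b rc_AI146214_at on 19 of 39, where signal over background limits the values.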
